A study of Drosophila melanogaster with 4 samples.

Results

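Weak Su(Hw) peaks that stand apart are the sites of low score, on the autosomes of Drosophila melanogaster, with no strong peak beside them. They were taken from 1 list of 5357 peaks, in which the peak caller gave each peak a position and a score. A peak was kept if it lay on 2L, 2R, 3L, 3R or chromosome 4, scored below 45, and had no peak of score 45 or more with an edge within 1000 bp. The rule kept 518 peaks, 9.67% of the list and 12.5% of the peaks on the 4 large autosomal arms. They are 39.5% (Wilson 95% interval 36.9 to 42.2%) of the 1312 weak autosomal peaks. The other 794 flanked 1 or more of the 2829 strong autosomal peaks. The score and the distance to strong peaks chose the members, so both are given below as descriptions.

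Su(Hw), Suppressor of Hairy-wing, is a DNA-binding protein with an array of zinc fingers. It binds the insulator of the gypsy retrotransposon, where it recruits CP190 and an isoform of Mod(mdg4), and it can block an enhancer from acting on a promoter placed beyond it. The protein also binds many sites outside gypsy, and females without it are sterile.

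The chromatin came from white prepupae, the immobile animals at the start of metamorphosis, of the strain labelled Y cn bw sp. The series has 2 ChIP libraries, made with the rabbit antibody Su(Hw)-PG, and 2 libraries of input DNA. Both groups share the genotype, which carries sp[1], bw[1], cn[1], y[1], oc[R3.2], lab[R4.2], CG33964[R4.2], Rh6[1], GstD5[1], MstProx[1], LysC[1], Gr22d[1] and Gr22b[1], and the labels give no treatment. Prepupae hold many cell types, so a low score from weak binding in many cells cannot be told apart from binding in few of them.

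No values per library were at hand. The sequencing depth is therefore unknown, a spread over replicates cannot be given, and the agreement of the 2 ChIP libraries was not analysed here. Intervals below reflect counting error alone, as if each peak were independent, although neighbouring peaks may not be, which was not examined. No test was run between classes of peaks, and coordinates are those of FlyBase release 5.

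Members were narrow sites of modest score that covered little of the genome. Their scores ran between 6.23 and 44.77 with a median of 19.015 (interquartile range 11.7 to 31.1). The central value of their widths was 470.5 bp, with quartiles at 317 and 714 bp, a lowest width of 201 bp and a highest of 1871 bp. Together they spanned 298 kb, which is 2.98% of the width of all autosomal peaks. The smallest width in the list, 201 bp, was reached by 11 members, and 66 were 1000 bp wide or more.

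The limit of the rule cuts through a continuous range of scores. The 3 highest scores among members were 44.77 at 3R:25564025-25565421, 44.34 at 2L:6776490-6777965 and 44.34 at 3R:7933042-7934072. The 3 autosomal peaks just above the limit scored 45.38 at 3L:21313732-21315562, 45.39 at 3L:13999724-14000137 and 45.40 at 2R:4529881-4531172. The widths of these members, 1397, 1476 and 1031 bp, overlap those of the peaks above the limit, 1831, 414 and 1292 bp. At the bottom of the range were 2R:5390695-5390908 and 3R:26774233-26774472, both with a score of 6.23, and 3L:12227990-12228206 with 6.48. These last sites were 214, 240 and 217 bp wide, close to the narrowest peaks of the list.

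Peaks lay close to the limit on distance on both sides. The members nearest to a strong peak were 3R:16156162-16156459 at 1003 bp, 2R:11920226-11920468 at 1006 bp and 2L:15872239-15872558 at 1015 bp, with scores of 8.16, 9.40 and 8.51. On the other side, the flanking peaks farthest from their strong neighbour were 3L:20869154-20869950 at 1000 bp, 2L:15715525-15715949 at 997 bp and 3L:8706470-8706684 at 989 bp. These scored 38.53, 33.03 and 12.51, each above the 3 members just outside the limit.

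The members were stronger, as a class, than the weak peaks at the flanks of strong ones. Their median score was 19.015 (order-statistic 95% interval 17.7 to 20.5), against 12.1 (11.7 to 12.4) for the flanking peaks. A score of 20 or more was reached by 246 members (47.5%, Wilson 95% interval 43.2 to 51.8%) and by 106 flanking peaks (13.4%, 11.2 to 15.9%). A score of 30 or more was reached by 139 members (26.8%) and by 39 flanking peaks (4.91%). Solitary strong peaks, those with no other strong peak within 1000 bp, had a median score of 313. Low scores, below 20, made up 52.5% of the members and 86.7% of the flanking peaks.

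**Figure D1:**
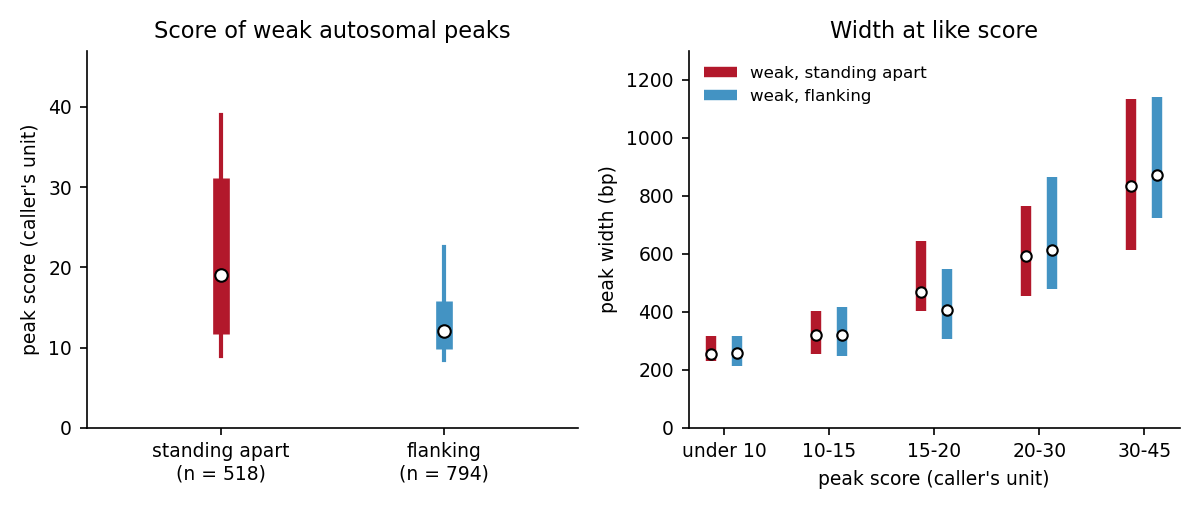
The left panel plots the score of weak autosomal peaks, 518 standing apart (red) and 794 flanking a strong peak (blue), with the median as a circle, the interquartile range as a thick bar and the 10th to 90th percentile as a thin line. The right panel plots peak width in bp within 5 classes of score, with medians as circles and interquartile ranges as bars; medians of both classes lie close together at like score.

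Members were also wider than flanking peaks, with a median of 470.5 bp (interval 437 to 509) against 328 bp (317 to 340). Width follows the score, and at like score the classes lay close together. Among peaks scoring below 10 the median was 253 bp for 89 members and 259 bp for 218 flanking peaks. Between 10 and 15 it was 320 bp for 109 members and 321.5 bp for 352 flanking peaks. Between 15 and 20 the members were the wider, at 468 bp (74 peaks, interval 428 to 563) against 405.5 bp (118 peaks, 369 to 442). Between 20 and 30 the medians were 591 bp for 107 members and 613 bp for 67 flanking peaks, and between 30 and 45 they were 835 bp for 139 members and 873 bp for 39. The intervals overlapped in each of these 5 classes. Across the 518 members the Spearman rho of score and width was 0.783, a description of peaks that share libraries.

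Strong peaks had a 10th percentile of width of 1291 bp and a lower quartile of 2016 bp. Only the narrower of them were matched by the widest members. The 5 widest were 3R:22515349-22517219 (1871 bp, score 41.14), 3L:9226112-9227968 (1857 bp, score 43.24), 2R:8277570-8279320 (1751 bp, score 42.74), 2R:3872678-3874358 (1681 bp, score 40.89) and 3L:5573783-5575444 (1662 bp, score 31.58). The first and the third of these had another member within 490 and 60 bp. The strong peaks nearest to the 5 lay between 9.64 and 43.3 kb away.

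Members lay at very unequal distances from strong peaks. The median gap between the edges of a member and its nearest strong peak was 8009.5 bp (interval 7074 to 9151), with quartiles at 3319 and 17086 bp. Gaps of at most 2000 bp were found for 73 members (14.1%), of at most 5000 bp for 192 (37.1%), of at most 10000 bp for 297 (57.3%) and of at most 50000 bp for 497 (95.9%). For comparison, the gap of a solitary strong peak to the next strong peak had a median of 8937 bp (8521 to 9467) and quartiles of 4316 and 18424 bp. The intervals of both medians overlap, but this comparison takes no account of how much sequence lies at each distance, which the densities below do.

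The nearest strong peaks of the members were ordinary in strength. They numbered 408, or 14.4% of all strong autosomal peaks, because 195 members shared theirs with another member. Their median score was 327 (interval 284 to 359), against 308 (296 to 321) for the 2421 other strong peaks, and their median width was 3157.5 bp against 3016 bp. A member's score hardly followed that of its nearest strong peak (Spearman rho -0.07 over 518 members) or the distance to it (rho 0.13).

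Weak peaks became sparser with distance from strong peaks well beyond the first kilobase. Each weak peak was binned by its gap to the nearest strong peak, and the count was divided by the sequence of the autosomal arms at that distance. The flanking peaks made up the first bins, with 370 per Mb (Poisson 95% interval 335 to 408) within 200 bp, 168 per Mb at 200 to 500 bp and 40.8 per Mb (33.5 to 49.3) at 500 to 1000 bp. The members began at 14.7 per Mb (11.5 to 18.5; 73 members) at 1 to 2 kb and were at 9.62 per Mb (7.97 to 11.5; 119 members) at 2 to 5 kb. At 5 to 10 kb there were 7.01 per Mb (105 members), at 10 to 20 kb 6.28 per Mb (116 members) and at 20 to 50 kb 4.05 per Mb (3.23 to 5.01; 84 members). The last bins held few members, 16 at 50 to 100 kb (2.37 per Mb, 1.35 to 3.84) and 5 beyond 100 kb (1.38 per Mb, 0.449 to 3.23).

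The density at 1 to 2 kb was 3.64 times that at 20 to 50 kb (95% interval 2.66 to 4.98 from the split of the 2 counts). Long distances occur mostly where strong peaks are scarce, including the ends of the arms near centromeres. Without the proximal 2 Mb of each large arm the ratio was 3.77 (2.74 to 5.18).

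**Figure D2:**
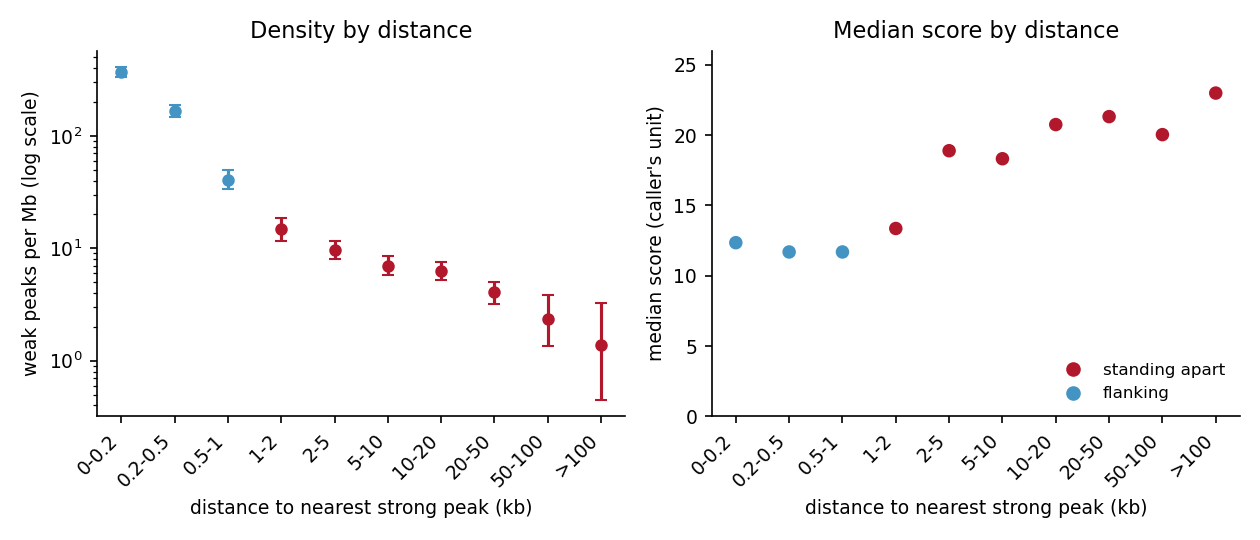
Weak autosomal peaks by their distance to the nearest strong peak, in kb; the left panel plots peaks per Mb of sequence at that distance on a log axis with Poisson 95% intervals, and the right panel their median score. Flanking peaks (blue) run down to 40.8 per Mb at 500 to 1000 bp, members (red) start at 14.7 per Mb and are sparser at each step, and the median score is under 13 for flanking peaks and 18 or more for members beyond 2 kb.

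The score of weak peaks differed over the same distances. It had a median of 12.4 within 200 bp of a strong peak and of 11.7 in each of the next 2 bins up to 1000 bp. Members at 1 to 2 kb had a median score of 13.4, close to the flanking peaks, while those at 2 to 5 kb had 18.9, at 5 to 10 kb 18.3 and at 10 to 20 kb 20.8. At 20 to 50 kb the median score was 21.3. Median widths changed alongside, with 387 bp at 1 to 2 kb, 497 bp at 2 to 5 kb and 515.5 bp at 10 to 20 kb. Among these bins, the largest step in median score lay between 1 to 2 kb and 2 to 5 kb, beyond the 1000 bp of the rule.

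The 5 members farthest from a strong peak were all in the centromere-facing parts of their arms, and 4 of them shared 1 stretch of 2R. They were 2R:2199373-2199654 (score 23.42) at 214 kb from a strong peak, 2R:2198925-2199320 (score 22.99) at 214 kb, 2R:2194884-2195103 (score 10.59) at 210 kb and 2R:2119627-2120244 (score 39.81) at 134 kb. The remaining one, 3L:24297812-24298216 with a score of 20.49, lay 157 kb from any other peak.

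The members also lay apart from each other for the most part. The median gap of a member to the nearest other member was 38318 bp (interval 30620 to 49008), with quartiles of 4520 and 114021 bp. Along the arms, 168 of the 514 gaps between successive members exceeded 200 kb, and the longest was 1395616 bp, on 2R. Another member lay within 10 kb of 156 members (30.1%, Wilson 95% interval 26.3 to 34.2%) and within 50 kb of 285 (55.0%). Among the 2829 strong autosomal peaks, 58.3% had another strong peak within 10 kb. The shares are not comparable as spacing, since the large arms carry 5.42 members and 29.5 strong peaks per Mb.

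Some members, in contrast, had another member next to them. At most 1000 bp separated 101 members (19.5%, interval 16.3 to 23.1%) from another. The 53 gaps of at most 1000 bp had a median of 123 bp, and 35 of them were shorter than 200 bp. The shortest was 45 bp, which is not particular to members. Gaps began at 44 bp between flanking and strong peaks and at 45 bp between strong peaks. These 101 members formed 43 pairs and 5 groups of 3, with spans between 571 and 3327 bp and a median span of 1224.5 bp. They scored lower than the 417 members with no such neighbour, with medians of 13.7 (interval 12.4 to 17.3) and 20.1 (18.5 to 22.2). Their median widths were 422 and 483 bp, and their median gaps to a strong peak were 7726 and 8059 bp. Counting each joined group once left 465 places on the arms.

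Peaks of other kinds were the nearest neighbours of most members. The nearest peak of any kind was a strong peak for 286 members (55.2%), another member for 171 (33.0%) and a flanking weak peak for 61 (11.8%). A flanking peak lay within 1000 bp of 23 members. No peak of any kind lay within 10 kb of 155 members (29.9%), within 20 kb of 62 (11.97%) or within 50 kb of 9 (1.74%).

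The 3 largest chains of members, with successive gaps of at most 10 kb, held 4 each. The chain at 2L:19809903-19821263 had scores of 11.05, 20.90, 40.61 and 25.15 and widths of 217, 1515, 1170 and 708 bp. The chain at 2R:14917787-14922573 was the most compact, with 4 members in 4787 bp and scores of 19.69, 9.21, 21.73 and 8.63. The chain at 2R:17286728-17299255 consisted of 2 close pairs, with scores of 18.89 and 14.05 in the first and 9.21 and 18.89 in the second. In all 3, members scoring near 20 or above stood beside weaker ones.

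Stretches without a strong peak were examined next. Strong peaks divide the 5 autosomal arms into 2830 such stretches, counting those at the arm ends, with 87.3 Mb in all. Members were found in 389 of them (13.7%), and 102 held 2 or more. The share of stretches with a member was larger the longer the stretch, at 7.27% for 5 to 10 kb, 18.9% for 20 to 50 kb, 33.3% for 100 to 200 kb and 47.8% (Wilson 95% interval 29.2 to 67.0%; 11 of 23) for 200 kb or more.

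Per Mb, members were sparser the longer the stretch. Stretches of 5 to 10 kb had 12.7 members per Mb (Poisson 95% interval 9.15 to 17.2) and those of 10 to 20 kb had 8.91 per Mb (6.99 to 11.2). At 20 to 50 kb there were 7.07 per Mb (6.02 to 8.24), at 50 to 100 kb 5.27 per Mb (4.41 to 6.26), at 100 to 200 kb 4.31 per Mb (3.41 to 5.36) and at 200 kb or more 2.37 per Mb (1.42 to 3.69; 19 members). Stretches under 5 kb had 7.33 per Mb (10 members), but the rule bars members from 1000 bp at each of their ends.

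**Figure D3:**
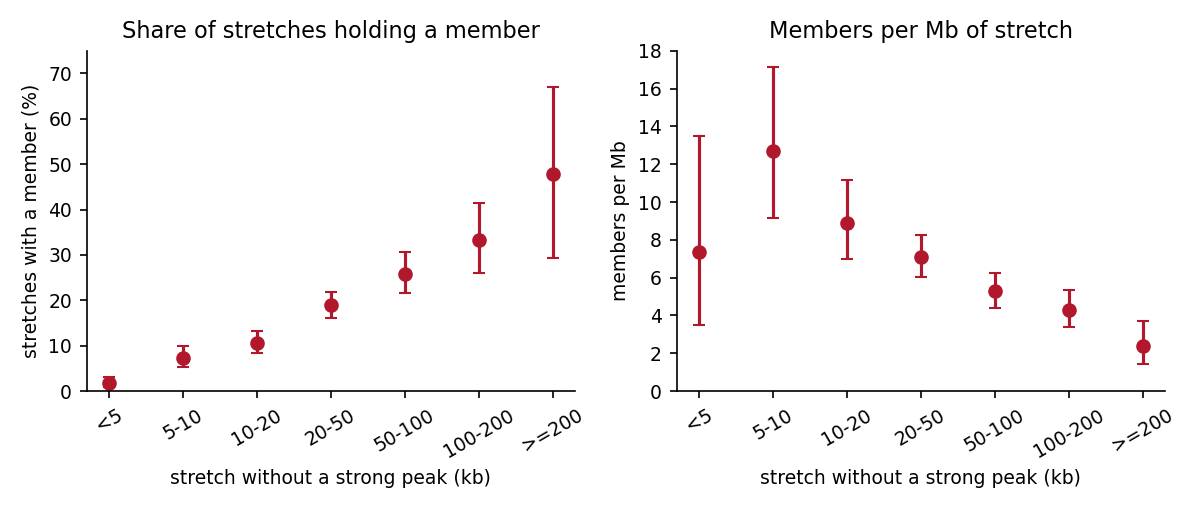
Stretches of the autosomal arms between strong peaks, grouped by length in kb; the left panel plots the percentage that hold a member with Wilson 95% intervals, and the right panel the members per Mb with Poisson 95% intervals. Longer stretches more often hold a member, up to 47.8% at 200 kb or more, while the density is lower in each class beyond 10 kb.

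Long stretches, of 100 kb or more, held fewer members than their length. The 164 of them contained 99 members (19.1%, Wilson 95% interval 15.96 to 22.7%) and 30.5% of the sequence outside strong peaks. Members were present in 58 of the 164, and 85 held no weak peak at all, flanking ones included. In the 146 long stretches outside the proximal 2 Mb of the large arms there were 3.99 members per Mb (3.19 to 4.94; 85 members), against 7.07 per Mb (6.41 to 7.79; 413 members) in shorter stretches outside it. Stretches were assigned by their centres, so 2R:1985133-2455612, with 5 members, counted as outside although it begins within the proximal 2 Mb. In the proximal 2 Mb the long stretches had 2.63 per Mb (1.44 to 4.41; 14 members) and the shorter ones 2.60 per Mb (0.953 to 5.65; 6 members), too few to tell a difference.

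Within long stretches the members lay towards the ends. Of the 97 members in long stretches bounded by strong peaks on both sides, 62 (63.9%, Wilson 95% interval 54.0 to 72.8%) were in the outer 25% at either end, which together make up 50% of the length. Their median position was 14.7% of the stretch from the nearer strong peak, where even spacing puts it at 25%. In stretches of 20 to 100 kb the median position was 24.98% and 50.2% of 293 members were in these outer parts. In stretches under 20 kb these values were 30.3% and 37.3% of 126 members. The rule bars members from 1000 bp at each end, which lowers the outer share more in shorter stretches. Even spacing outside the barred parts would therefore put fewer than 50% of members in the outer parts. Leaving out the proximal 2 Mb gave 64.7% for long stretches.

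The 3 longest stretches counted held 2 members between them. Arms were taken to end with their final peak, so an empty stretch at the proximal end of 2L or 3L, even a longer one, would be missed. The longest of those counted, 2R:1-936661, begins at the end of the assembled arm and held no peak of any kind. The second, 2L:21381750-22044407, held 1 member at 2L:21408864-21409439 (score 27.39), 27.1 kb from the strong peak at its distal end. The third, 3L:23217307-23799612, held 1 at 3L:23766801-23767173 (score 12.35), 32.4 kb from the strong peak at its proximal end. All 3 stretches lie in the centromere-facing parts of their arms.

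The stretches richest in members held up to 5. In 2L:19697920-19823507, 126 kb long, a member at 2L:19702545-19702754 (score 12.35) stood 4.63 kb inside 1 end and the other 4 were the chain described above near the opposite end. The 470 kb of 2R:1985133-2455612 held 5 members and no flanking peak. Those were 2R:1988642-1989330 (score 27.60), 3509 bp from a strong peak of score 89.35, and the 4 remote members named above, which occupy the part between 134 and 214 kb from that peak. The 55.6 kb of 2R:14900008-14955596 held the compact chain of 4 and no other weak peak.

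**Figure D4:**
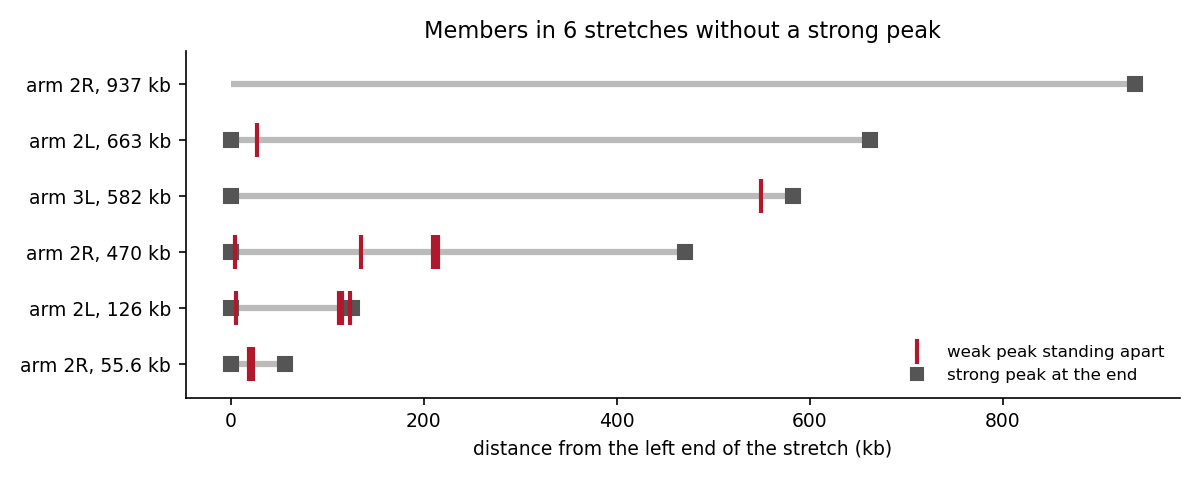
Map of 6 stretches without a strong peak, the 3 longest counted and the 3 with the most members, drawn to scale in kb from their left end, with members as red ticks and bounding strong peaks as grey squares. The 2 longest bounded stretches hold 1 member each near an end, and the 470 kb stretch of 2R holds 5, of which 3 lie near its middle.

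All 4 large autosomal arms carried members. There were 6.17 per Mb on 2L (Poisson 95% interval 5.17 to 7.29; 136 members), 5.63 on 2R (4.66 to 6.73; 119), 4.58 on 3L (3.77 to 5.51; 112) and 5.42 on 3R (4.59 to 6.36; 151). The intervals of all 4 arms overlap, those of the highest and the lowest only narrowly. Strong peaks numbered 29.3, 29.2, 27.6 and 31.6 per Mb on 2L, 2R, 3L and 3R, so the members per strong peak were 0.210, 0.193, 0.166 and 0.172. In the same order of arms, the members' median scores were 19.5, 20.6, 17.9 and 18.6. Their median widths were 441.5, 523, 458.5 and 458 bp, and their median gaps to a strong peak 8646, 8252, 8344 and 7493 bp.

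Chromosome 4, the small and largely heterochromatic dot chromosome, held no member. It carried 8 strong peaks and 1 weak one, 4:433805-434266, which scored 15.26 and flanked a strong peak at 266 bp. A count of 0 over 1.17 Mb allows up to 2.57 members per Mb by a limit of 3 counts, and up to 3.16 per Mb by the exact Poisson 95% interval. Both limits are below the densities on the large arms. Strong peaks were also sparser on chromosome 4, at 6.85 per Mb against 29.5 on the large arms. Members were 12.5% of the peaks on the large arms, so a count of 0 among 9 peaks cannot show a shortage.

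Pooled over the large arms, members were sparsest at the centromere end. Divided into 10 equal parts, the 4 arms held between 48 and 65 members in each of the first 9 parts counted from the telomere, or 5.03 to 6.81 per Mb. The last part held 27, or 2.83 per Mb (Poisson 95% interval 1.86 to 4.11). On 2R it held 3 members, on 3L 6, on 2L 8 and on 3R 10. Single arms were less even than the pooled profile. On 3R the part at 30 to 40% of the arm held 7 members (2.51 per Mb), fewer than the 10 (3.59 per Mb) of its centromere end, and on 2R the part at 60 to 70% held 5 (2.36 per Mb). In the last part of the pooled arms strong peaks were likewise sparse, at 17.1 per Mb (14.5 to 19.9), against 25.5 to 35.2 per Mb in the other pooled parts.

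The proximal 1 Mb of 2L and 3L was counted from their last peak. In the proximal 1 Mb the members were at 2.25 per Mb (9 members), and at 5.56 per Mb over the rest of the arms, a ratio of 0.404 (95% interval 0.212 to 0.773). The ratio for strong peaks was 0.238 and that for flanking peaks, also 9 in number there, 0.263. Over the proximal 2 Mb the 3 classes were alike, at 0.462 for members, 0.440 for strong and 0.475 for flanking peaks. By arm, the proximal 1 Mb held 0 members on 2R, 2 on 2L, 2 on 3L and 5 on 3R. The value for 3R, 0.919 of the density over the rest of that arm, stood apart from the 0.314 of 2L and the 0.427 of 3L, but rests on 5 peaks. In the distal 1 Mb there were 17 members, or 4.25 per Mb, against 5.48 per Mb elsewhere, a ratio of 0.776. On 3L the distal 1 Mb held 2 members, as many as its proximal 1 Mb, with the same ratio of 0.427. Of the 4 arms, 2L alone had more members per Mb in its distal 1 Mb than elsewhere, with 8 members and a ratio of 1.32.

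**Figure D5:**
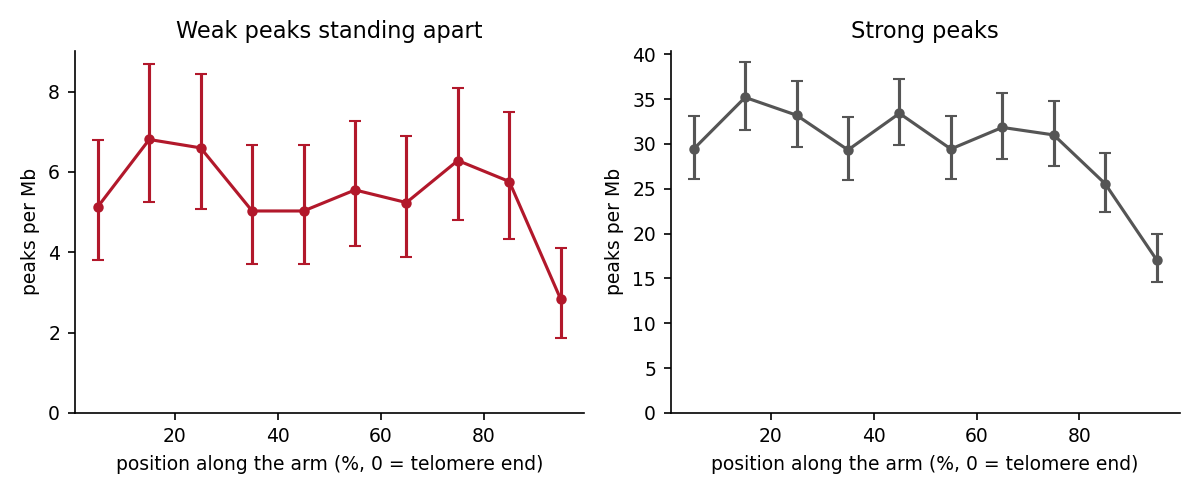
Peaks per Mb in 10 equal parts of the 4 large autosomal arms, from the telomere end (0%) to the centromere end (100%), with Poisson 95% intervals; weak peaks standing apart are on the left and strong peaks on the right, each on an axis that starts at 0. Members range between 5.03 and 6.81 per Mb over the first 9 parts and reach 2.83 in the last, and strong peaks are also lowest in the last part.

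The outermost members of each arm mark how far the called weak peaks standing apart reached. On 2L they were 2L:94027-94391 (score 39.50) at the distal and 2L:21408864-21409439 (score 27.39) at the proximal end. On 2R they were 2R:21076780-21077019 (score 14.76) and 2R:1598841-1599160 (score 10.15), on 3L 3L:611771-612005 (score 7.57) and 3L:24297812-24298216 (score 20.49), and on 3R 3R:27712488-27713234 (score 39.57) and 3R:18652-18942 (score 34.69), each with the distal one first. The most proximal member of 3R lay 87.5 kb from a strong peak, and that of 3L lay 157 kb from one.

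Windows of 500 kb show how members and strong peaks were distributed together. The 189 complete windows of the large arms held 2.72 ± 2.00 members (SD over windows) and 14.8 ± 5.15 strong peaks. The Spearman rho between the members and strong peaks of a window was 0.26, and that between flanking and strong peaks 0.66. A flanking peak needs a strong peak beside it by the rule, and a member must have none, so the rule itself sets them apart. Both are descriptions over windows that share libraries, arms and mappability. Windows with 0 to 9 strong peaks had 1.23 ± 1.48 members (22 windows), those with 10 to 14 had 2.54 ± 1.56 (59 windows), those with 15 to 19 had 3.09 ± 2.20 (81 windows) and those with 20 or more had 3.26 ± 2.09 (27 windows). The flanking peaks of the same classes numbered 1.50 ± 1.77, 2.88 ± 1.95, 4.83 ± 2.42 and 7.26 ± 2.28.

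No member was found in 22 of the 189 windows (11.6%), of which 20 held strong peaks. The richest window, 3R:13000001-13500000, held 12 members beside 17 strong and 3 flanking peaks. It was followed by 2R:9500001-10000000 and 3L:4500001-5000000 with 9 members and 18 strong peaks each. Both windows without a strong peak were also without members.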

How the data were processed

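White prepupae gave 2 Su(Hw) ChIP libraries and 2 input libraries, and the authors deposited 1 peak list with a score per peak. Per the file headers and columns, the score was written by MACS on FlyBase release 5. Per the submitters' processing notes, MACS2, BWA, the build BDGP5 and CASAVA (1.7.0.3 and 1.7.0.2) were involved. Not given in the sources used here are the scale of the score, the calling threshold, and whether input served as control or ChIP libraries were pooled. A column of values per sample was found 0 times, so nothing of that kind was set aside. Depth is unknown, and a low-scoring peak could not be checked in each library.

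Gaps count the bases between facing edges, and a gap of up to 1000 bp counts as within 1000 bp. Arms run from position 1 to the end of their last peak. Stretches were taken between strong peaks or from an arm end, and peaks were placed in them by their centres. Shares have Wilson, densities exact Poisson and medians order-statistic 95% intervals. A ratio of densities has a Wilson interval on the split of its counts. The code for classes, gaps and stretches was tested on simulated data.

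The members, limits, alternatives and named regions (extremes of score, width, gap and position, the longest and richest stretches, the largest chains, and any member on chromosome 4, where there was none) were chosen with earlier results of these data known. The members at the limit on distance were named after their values were seen. No peak was assigned to a gene, since the gene table at hand is on release 6, and peak sequences were not analysed here. Intervals came from SciPy 1.17.1, figures from matplotlib 3.10.9, and the rest from pandas 2.3.3 and NumPy 2.4.6 under Python 3.11.15.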

Additional observations from a re-analysis of the deposited data

How the results depend on the processing

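Of 78 alternative values, 41 lay within the 95% interval of the value reported (for the number of members, within 1.5 times), and 37 did not. The 41 include the values without chromosome 4, which held no member, so that leaving it out could hardly change them. The limits on score and distance define the members, so their number and density moved with them by construction. With the score limit at 100 there were 939 members (9.82 per Mb on the large arms), 55.0% of the weak peaks, with a median width of 708 bp, a median distance to a strong peak of 9748 bp, 39.5% with another member within 10 kb and 23.4% in stretches of 100 kb or more. With the limit at 30 the density was 3.73 per Mb, the share of weak peaks 31.4%, the median width 396 bp and the share near another member 23.6%. Standing apart by more than 5000 bp left 326 members (3.41 per Mb, 24.8% of the weak peaks), a median distance of 14182 bp and 25.5% in long stretches. With 500 bp the values were 6.55 per Mb, 47.7% and 5610.5 bp. Distances between centres ignore the width of strong peaks and kept nearly all weak peaks: 1275 members (13.3 per Mb, 97.2%), with a median width of 377 bp, a median distance of 3042.5 bp, 42.7% near another and 10.4% in long stretches. Members joined within 1000 bp gave a density of 4.87 per Mb, a median width of 535 bp and 13.98% near another. Members of score 10 or more were at 4.49 per Mb, 42.7% of the weak peaks of such scores, 550 bp wide and 24.2% near another. The share near another member was 21.6% within 2 kb and 55.0% within 50 kb, and the share in stretches was 44.2% for 50 kb or more and 3.67% for 200 kb or more. For the proximal 1 Mb, the ratio of densities was below 1 under every alternative run, between 0.309 and 0.649. The last value, for members apart by more than 5000 bp, has a 95% interval of 0.339 to 1.25 that includes 1. The excess of weak peaks at 1 to 2 kb over 20 to 50 kb ranged between 2.69 and 4.54 times, and the share in the outer 25% at either end of long stretches between 59.7 and 65.6%; the alternatives to these last results were chosen after seeing the data. No paired analysis was possible because peaks carry 1 score for the whole series, so leaving out a replicate was not possible either. The sequence analysis set out for a genome of release 5 was not run.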

Other observations

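The same rule applied outside the autosomes gave further weak peaks standing apart. On X there were 141 among 999 peaks, a density of 6.29 per Mb (5.30 to 7.42, Poisson 95% interval), against 5.42 per Mb (4.97 to 5.91) on the large autosomal arms. They were 44.3% of the weak peaks of X (Wilson 95% interval 38.98 to 49.8%), against 39.5% (36.9 to 42.2%) on the autosomes. Their median score was 22.4 (interval 18.9 to 25.6), against 19.015 (17.7 to 20.5), and their median width 548 bp (474 to 625), against 470.5 bp (437 to 509). These intervals overlap, and no test was run. On heterochromatic and unplaced scaffolds 72 of 79 weak peaks (91.1%) stood apart, 48 of them on Uextra, 14 on heterochromatic scaffolds and 10 on U. Their median gap to the nearest strong peak was 104 kb, for the 70 that share a scaffold with one. Since U and Uextra hold unplaced sequence, gaps there cannot be read as distances along a chromosome. The share standing apart is therefore not comparable with that on the autosomes.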
